A study of Mus musculus with 2 samples.

Results

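The miR-29 family is represented here by its 3 guide arms, miR-29a-3p, miR-29b-3p and miR-29c-3p. They were chosen by their miRBase mature accessions, MIMAT0000535, MIMAT0000127 and MIMAT0000536, out of 610 miRNA features in the table. All 3 had a value on both arrays. The study profiled liver miRNAs in mice lacking the nuclear receptor HNF4a in the liver (Hnf4aΔH, called liver-null below) and in mice with the floxed, intact gene (Hnf4af/f, called floxed control), to find miRNAs that depend on HNF4a. Both groups were 45-day-old males of a mixed 129SV and C57BL/6 strain, and each group has 1 array. The labels name neither the Cre driver behind the deletion nor the number of animals whose RNA went onto an array.

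A miRNA guides the Argonaute protein to messenger RNAs through its seed, the stretch near its 5′ end that pairs with the target. The miR-29 family is known for lowering messenger RNAs of the extracellular matrix, among them collagens, elastin and fibrillin, and of enzymes that add or remove DNA methylation. In liver it is made by hepatocytes as well as by hepatic stellate cells, the main collagen-producing cells of the injured organ, and its fall in stellate cells is a known feature of liver fibrosis. Its messenger RNA targets were not measured here.

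The mature sequences are shown first because the members differ by few bases and are read by separate array features. Capitals mark the seed, bases 2 to 8. All 3 members were found by name in RefSeq's mouse annotation of the GRCm38.p6 build.
miR-29a-3p: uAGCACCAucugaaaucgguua
miR-29b-3p: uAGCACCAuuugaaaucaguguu
miR-29c-3p: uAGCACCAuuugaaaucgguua

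The seed AGCACCA was the same in the 3 members. No other miRNA (0) among the 1674 distinct mature sequences in the RefSeq table carried it. Counting positions from 1 at the 5′ end, with the base of the first-named member first, miR-29a-3p and miR-29c-3p differed by 1 substitution, C10U, and matched at the other 21 of 22 positions. miR-29a-3p differed from miR-29b-3p by 4 substitutions over the 22 positions compared, C10U, G18A, U21G and A22U. miR-29b-3p differed from miR-29c-3p by 3, A18G, G21U and U22A. The sources used here give no probe sequences, and how well the features separate members this similar was not tested.

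The 3′ end sets miR-29b-3p apart. Its last 6 bases, AGUGUU, are known from human cells as a signal that directs miR-29b to the nucleus. The hexamer closed 2 of the 1674 mature sequences, or 0.119%, miR-29b-3p included, and stood anywhere in 12 of them (0.717%). Mature RNAs were searched on their own strand only.

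The 3 guide arms come from 4 precursor hairpins in 2 pairs. The hairpins are shown because they tie each array feature to its loci. Capitals mark the guide arm in each hairpin.
Mir29a: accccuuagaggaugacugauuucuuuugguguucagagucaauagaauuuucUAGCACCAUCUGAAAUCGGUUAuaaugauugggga
Mir29b-1: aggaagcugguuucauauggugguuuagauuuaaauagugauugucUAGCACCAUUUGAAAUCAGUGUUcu
Mir29b-2: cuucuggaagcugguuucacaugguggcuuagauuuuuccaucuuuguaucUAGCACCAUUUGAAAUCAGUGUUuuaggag
Mir29c: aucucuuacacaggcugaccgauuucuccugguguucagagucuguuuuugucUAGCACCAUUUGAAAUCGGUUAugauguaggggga

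Mir29a (chr6:31062660-31062747) and Mir29b-1 (chr6:31063023-31063093) lie on the minus strand of chromosome 6 in GRCm38.p6, with 275 bases between them. No gene other than the hairpins' own spans them in the RefSeq table. Mir29b-2 (chr1:195037040-195037120) and Mir29c (chr1:195037547-195037634) lie on the plus strand of chromosome 1, with 426 bases between them. Both fall within the span of the long non-coding RNA gene A330023F24Rik. The table gives no exons or strand for that gene, so the hairpins could not be placed in its exons or introns. Neither pair had another miRNA hairpin (0) within 10 kb in the RefSeq sequence table. The guide arm of Mir29b-1 is identical to that of Mir29b-2, so the miR-29b-3p feature reads the products of both pairs together, while miR-29a-3p comes from chromosome 6 and miR-29c-3p from chromosome 1.

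Of the 3 guide arms, 2 gave a stronger signal in the liver-null liver and 1 gave nearly the same signal in both livers. The values are the deposited array intensities on a linear scale. Each group is a single array, so the values carry no replicate error and the groups could not be tested against each other. Each difference therefore compares 2 arrays and holds genotype, animals and hybridisation together, which cannot be told apart. The loss of Hnf4a itself could not be checked on miRNA arrays. In RNA of whole liver, a change in the number of cells that make a miRNA and a change in its amount per cell cannot be told apart either.

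miR-29a-3p, the member that gave the strongest signal on both arrays, gave an intensity of 208 with the floxed control RNA and one of 339 with the liver-null RNA. The liver-null value was 63.2% higher, a ratio of 1.63. On the log2(intensity + 1) scale, which understates changes of dim features, its level went from 7.70 with control RNA to 8.41 with liver-null RNA. The difference, liver-null minus control, was 0.70.

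miR-29b-3p, the member made from both hairpin pairs, gave 64.1 with control RNA and 110 with liver-null RNA. The liver-null value was 71.7% higher, a ratio of 1.72. Its log2 level went from 6.03 to 6.80, a difference of 0.77. For both members the liver-null value was thus above the control value by a like factor.

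miR-29c-3p, which differs from miR-29a-3p at position 10 alone, gave 41.6 with control RNA and 39.4 with liver-null RNA. The change was -5.37%. Its log2 level went from 5.41 to 5.34, a difference of -0.08. The order of signals, miR-29a-3p above miR-29b-3p above miR-29c-3p, was the same on both arrays. Probes differ in how brightly they report their miRNA, so this order does not rank the members by abundance.

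**Figure D1:**
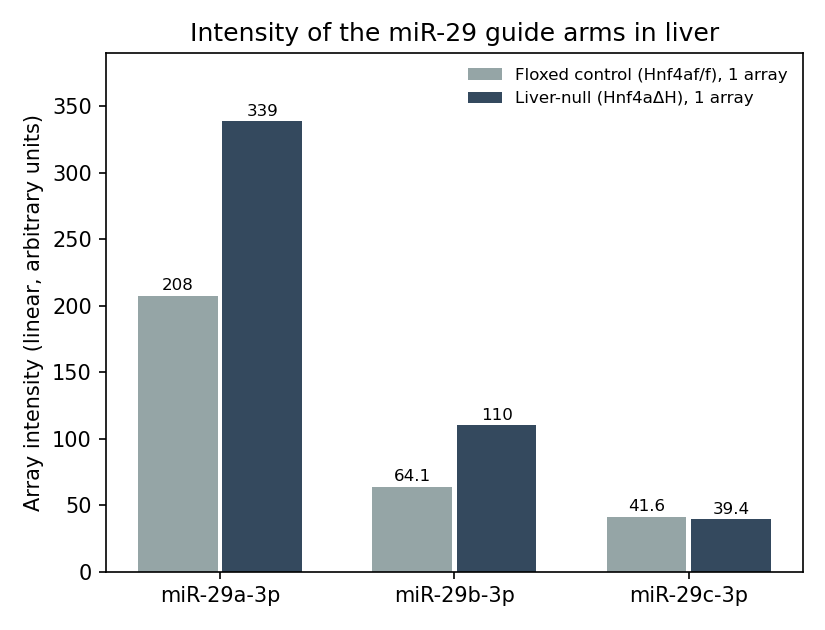
Bars give the deposited intensity (linear, arbitrary units) of each miR-29 guide arm for the floxed control and for the liver-null liver, 1 array per group and no error bars. miR-29a-3p goes from 208 to 339 and miR-29b-3p from 64.1 to 110, while miR-29c-3p stands at 41.6 and 39.4.

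Ranks within each array, which do not depend on a common scale factor, were taken with 1 as the brightest feature. miR-29a-3p ranked 28 of 299 features with a value on the control array and 17 of 340 on the liver-null array. miR-29b-3p ranked 51 and 33, in the same order of arrays. miR-29c-3p ranked 59 and 61. Among the 258 features measured on both arrays, called shared below, the ranks were the same numbers, so the features with a value on 1 array alone took no part in these moves. All 3 members lay in the brightest quartile of those shared features by mean log2 level, far above the lowest intensities given, 1.45 on the control and 1.02 on the liver-null array.

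**Figure D2:**
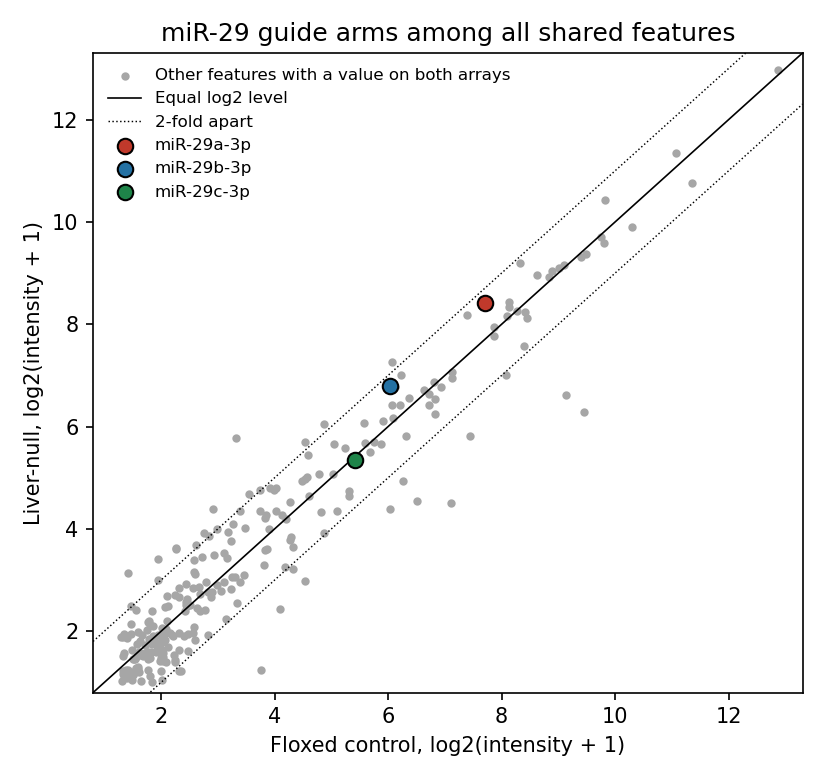
Each point is 1 of the 258 shared features, those measured on both arrays, by its log2(intensity + 1) for the floxed control (x axis) and for the liver-null liver (y axis), with lines of equal level and of a 2-fold difference. miR-29a-3p and miR-29b-3p lie above the line of equal level and inside the 2-fold line, and miR-29c-3p, with a difference of -0.08, lies close to the line of equal level.

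On the log2(intensity + 1) scale, a liver-null value at least 1.5 times the control value was found for 2 of the 3 members, against 15.1% of all 258 shared features and 24% of the 129 at or above the median mean level. A control value at least 1.5 times the liver-null value was found for none of them (0), against 14.7% of the shared features. In the brightest quartile, where the members lie, the same shares of 65 features were 16.9% for a higher and 15.4% for a lower liver-null value. None of the members (0) reached 2-fold either way. Of the shared features, 6.59% stood higher and 5.43% lower by that much, and in the brightest quartile 4.62% stood higher and 12.3% lower. With 3 members that share bases and loci, these shares place the family among the other features and are not a test of it.

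The median difference of the 3 members was 0.70, which is the value of miR-29a-3p. It stood beside -0.06 over all 258 shared features and 0.04 over the brightest quartile. The middle of the distribution over the brightest quartile ran from -0.30 at its 25th percentile to 0.28 at its 75th. The differences of miR-29a-3p and miR-29b-3p lay above that range, and that of miR-29c-3p inside it. In that quartile 7 of 65 features had a higher difference than miR-29a-3p and 6 had a higher one than miR-29b-3p, while 37 had a higher one than miR-29c-3p. Over all shared features, 31 lay higher than miR-29a-3p, 28 higher than miR-29b-3p and 133 higher than miR-29c-3p. Among the 129 features at or above the median mean level, 26 lay higher than miR-29a-3p, 23 higher than miR-29b-3p and 78 higher than miR-29c-3p. The first 2 members were thus in the upper part of the arrays' differences, below the 95th percentile of 1.03 over all shared features. miR-29c-3p was near the middle of the differences. The highest difference was 2.46 over all shared features and 1.18 over the brightest quartile.

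**Figure D3:**
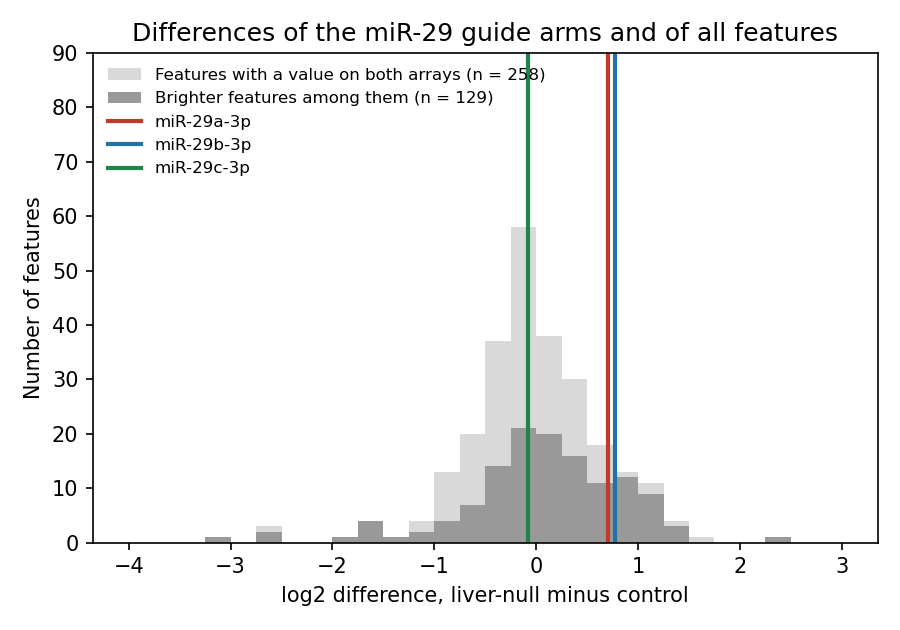
The histogram counts features by their log2 difference, liver-null minus control, for all 258 shared features (light) and for the 129 at or above the median mean level (dark), and vertical lines mark the members. miR-29a-3p at 0.70 and miR-29b-3p at 0.77 stand in the upper part, and miR-29c-3p at -0.08 stands near the centre.

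Setting the members against each other largely removes any factor that scales a whole array. The difference of miR-29a-3p exceeded that of miR-29c-3p by 0.78 on the log2 scale. That of miR-29b-3p exceeded it by 0.85. Those of miR-29a-3p and miR-29b-3p stood close together, at -0.07 for miR-29a-3p minus miR-29b-3p, with 2 of the other shared features between them. Between miR-29a-3p and miR-29c-3p, the pair separated by 1 base, lay 101 shared features. The signals of the 3 members therefore differed unequally between these 2 arrays. Whether the gap exceeds the variation between animals was not tested.

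By the loci, the member encoded on chromosome 6 alone and the member encoded on both chromosomes had the higher liver-null signal. The member encoded on chromosome 1 alone did not. Whether the locus has a part in this was not tested, nor was how well the features separate the members. The array cannot divide the miR-29b-3p signal between Mir29b-1 and Mir29b-2.

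The direction of each difference was the same under 6 other ways of scaling or transforming the values, of which a change of pseudocount cannot turn a direction, while the sizes moved. Over the shared features, the liver-null array's median log2 level exceeded the control array's by 0.15. Relative to that shift, miR-29a-3p differed by 0.55, miR-29b-3p by 0.62 and miR-29c-3p by -0.23, which left miR-29b-3p alone at or above 1.5-fold. The median difference over all shared features was then -0.21, close to the value of miR-29c-3p. The members' places among the differences did not change. Over all shared features 12.0% were then higher and 21.3% lower by that much. Of the features at or above the median mean level, 20.2% were higher and 20.2% lower. With quantile normalization, which gives both arrays the same distribution, miR-29a-3p differed by 1.04 and miR-29b-3p by 1.04, both just past 2-fold, and miR-29c-3p by -0.13. Past 2-fold in this setting lay 5.81% of all shared features in each direction. Of those at or above the median mean level, 8.53% lay higher and 9.30% lower. The gap between miR-29a-3p and miR-29c-3p ran from 0.72 to 1.18 over all settings, and that between miR-29b-3p and miR-29c-3p from 0.71 to 1.17.

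**Figure D4:**
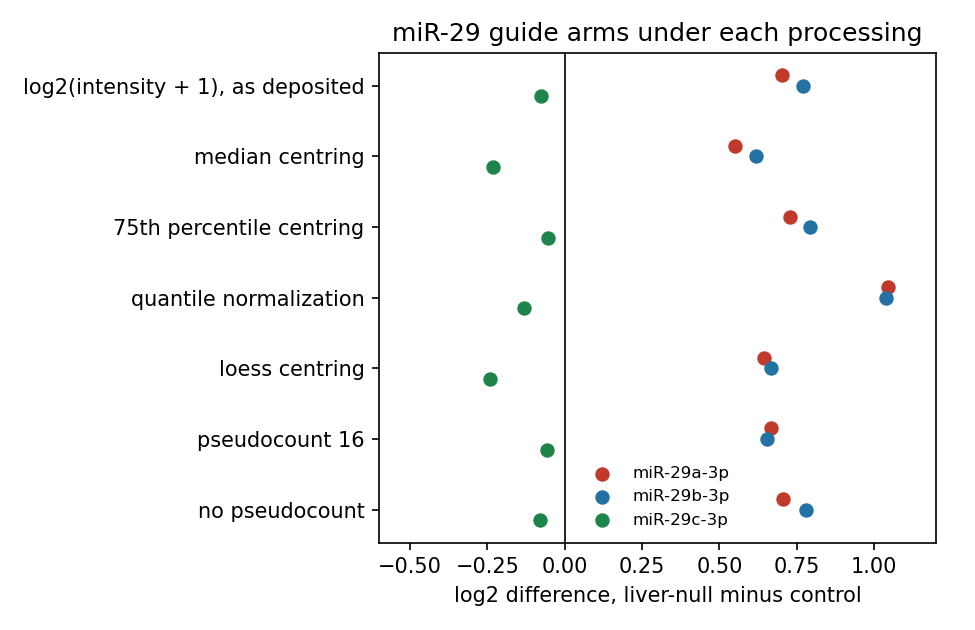
Points give the log2 difference, liver-null minus control (x axis), of each member under the deposited scale and 6 alternatives (y axis), with 1 array per group and no error bars. miR-29a-3p and miR-29b-3p lie between 0.55 and 1.04 in every setting, and miR-29c-3p lies between -0.24 and -0.05.

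Of 125 other features at or above the median mean level that carry a single accession, 10 had a log2 difference within 0.1 of the family's median. The nearest 5 of them ran from 0.65 to 0.78. Likeness here rests on 1 difference between 2 arrays and on the family's median, from which miR-29c-3p, at -0.08, lay far. These features are not named because the sources used here do not pair their accessions with miRNA names. For the same reason, no value is given for the passenger arms of the miR-29 hairpins or for other fibrosis-related miRNAs, and the label of liver was not checked against marker miRNAs of hepatocytes or other cells.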

How the data were processed

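Total RNA from liver was labelled with the red dye Hy5 using a kit for LNA-based miRNA arrays, per the labels' protocols, in 1 channel. The authors deposited 1 table of positive array intensity values on a linear scale, with no value for some features. The array design and how the authors corrected the background, filtered dim spots and normalized are unstated in the sources used here. Features without a value were left as they are. From the table, log2(intensity + 1), the difference liver-null minus control, ratios and ranks were computed, over all 258 shared features, and only the 3 members are named. With 1 array per group no test was made, and precision is limited by the number of arrays.

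The alternatives were centring on the median or the 75th percentile, quantile normalization, loess centring (span 0.4), a pseudocount of 16 and no pseudocount. The counting code was tested on simulated data. Sequences came from RefSeq tables (GRCm38.p6). The 11 lists of other miRNAs could not be applied without names for their accessions. The members and lists were chosen with earlier results of these data known. Named were to be the members, passenger arms, list members and the 5 features nearest to the family's median difference, each where its accession has a name. Software was matplotlib 3.10.9, statsmodels 0.14.6, numpy 2.4.6 and pandas 2.3.3 under Python 3.11.15.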

Additional observations from a re-analysis of the deposited data

How the results depend on the processing

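No paired analysis was possible because there is a single array for each genotype, which also means that no replicate could be omitted. A difference was taken as moved when it changed by more than 0.1 on the log2 scale, and no member changed sign under any of the 6 alternatives. With median centring miR-29a-3p came to 0.55, miR-29b-3p to 0.62, miR-29c-3p to -0.23 and the median of the 3 to 0.55, and 1 member, in place of 2, was at least 1.5-fold higher, beside 12.0% of all shared features higher and 21.3% lower. This follows from taking 0.15 off every difference, which brought the median over all shared features to -0.21 and left the members' places among them unchanged. With quantile normalization miR-29a-3p came to 1.04, miR-29b-3p to 1.04 and the median to 1.04, and 2 members, in place of 0, were at least 2-fold higher, beside 5.81% of all shared features; the cause was not tested. With loess centring miR-29b-3p came to 0.67 and miR-29c-3p to -0.24. Raising the pseudocount to 16, which shrinks all differences, brought miR-29b-3p to 0.65 and the shared features at least 1.5-fold higher and lower to 5.04% each, with 2 members still higher. With centring on the 75th percentile or no pseudocount, each member and their median stayed within 0.1 of the values reported. With no pseudocount the shares past 1.5-fold over all shared features came to 19.0% higher and 20.2% lower. Restricting the background to the 129 brighter features raised the share at least 1.5-fold higher from 15.1% to 24%, with the lower share at 14.7%. The settings for other miRNAs were not run, since their accessions have no names here.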
